A study of Mus musculus with 13 samples.

Results

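The genes described here encode 10 enzymes and partner proteins that write, copy, remove or read DNA methylation, or that place the Polycomb mark on histones: Dnmt1, Dnmt3a, Dnmt3b, Uhrf1, Hells, Tet1, Tet2, Tet3, Ezh1 and Ezh2. They were chosen by symbol, and each of the 10 was found among the 23364 genes listed for every one of 13 samples. All 10 had at least 1 FPKM in at least 1 sample and were thus among the 14650 genes tested. FPKM is the number of fragments per kilobase of a gene after scaling to the reads on genes in each sample, with the length of each gene as the authors took it, so that an order of levels between genes depends on those lengths. RNA was sequenced from whole submandibular salivary glands of C57BL/6 mice at embryonic day E14.5 (3 samples), E16.5 (2) and E18.5 (2), at postnatal day P5 (2), and at 4wk (2) and 12wk of age (2). No sample carried a transgene or was treated. Each embryonic replicate was a pool of glands of several animals, sex was not ascertained at the embryonic ages and P5, and the 4wk and 12wk animals were male. Sex and age can therefore not be told apart in comparisons with the adult. The 7 embryonic, 2 P5 and 4 adult samples were also compared as 3 stages, with the ages within a stage taken as replicates. Nothing in the sources shows whether replicates of an age shared a litter, so that p-values measure the spread between these samples.

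DNA methylation is laid down on unmethylated CpG sites by the de novo methyltransferases Dnmt3a and Dnmt3b, and is copied onto the new strand after replication by Dnmt1, which is brought to hemimethylated DNA by Uhrf1. Hells is a chromatin remodeller that gives the methyltransferases access to nucleosomal DNA. The Tet enzymes oxidise methylcytosine and so begin its removal. Ezh1 and Ezh2 are the alternative catalytic subunits of Polycomb repressive complex PRC2, which methylates lysine residues of histone H3 at silenced genes. Ezh2 is known chiefly from dividing and Ezh1 from resting tissue. The submandibular gland branches and grows before birth, and its acinar and granular duct cells acquire their secretory products afterwards.

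On the mouse build NCBIM37 (mm9), which the deposited values use, the maintenance genes lie on chromosome 9 (Dnmt1, chr9:20711650-20757317, minus strand), chromosome 17 (Uhrf1, chr17:56442744-56462909, plus strand) and chromosome 19 (Hells, chr19:39005405-39045541, plus strand). Dnmt3a spans chr12:3806007-3914443 and Dnmt3b chr2:153475186-153513466, both on the plus strand. The Tet genes are on the minus strand, at chr10:62267318-62361866 (Tet1), chr3:133126643-133207354 (Tet2) and chr6:83312367-83391672 (Tet3). Ezh1 at chr11:101052429-101087777 and Ezh2 at chr6:47480273-47545340 are on the minus strand as well. In the GENCODE annotation of this build, exons of Dnmt3a overlap the predicted gene Gm10485 and exons of Ezh2 overlap the predicted gene Gm17629. The other 8 genes share no exon with another gene.

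The start regions of the 10 genes were searched for the binding motif of E2F factors, which regulate genes of the cell cycle. RefSeq start regions of 300 bases, from 250 bases before to 50 bases after a listed transcription start on the newer build GRCm38.p6, were found for all 10 genes. The search looked on both strands for TTTCCCGC, TTTCGCGC, TTTGCCGC and TTTGGCGC, and was added after the expression values had been seen. A match was present for Dnmt1, Uhrf1, Hells and Ezh2, and for none of the other 6 genes. By comparison, 2.6% of the 27025 genes with a start region and 4.45% of the 10624 of these that were tested here held a match. A match is a description of the letters in these windows and not evidence of binding. The matched stretches are shown because they are the sequence feature that these 4 genes share, with the motif in capitals and each read 5′ to 3′ on the strand of the gene.
Hells, chr19:38930882-38930981, plus strand, 100 bases upstream of its 1 listed start: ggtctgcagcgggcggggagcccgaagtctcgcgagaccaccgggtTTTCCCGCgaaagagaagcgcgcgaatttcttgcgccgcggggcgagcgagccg
Uhrf1, chr17:56304117-56304146, plus strand: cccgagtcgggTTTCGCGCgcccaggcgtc
Ezh2, chr6:47595009-47595038, minus strand: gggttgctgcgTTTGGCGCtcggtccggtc
Dnmt1, chr9:20952824-20952853, minus strand: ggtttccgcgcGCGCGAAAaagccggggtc
Dnmt1, chr9:20952574-20952603, minus strand: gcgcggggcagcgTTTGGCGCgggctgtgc
Counted to the first base of the motif, the match lay 62 bases before the start in Hells and began at base 4 of the transcript in Ezh2. In Uhrf1 it lay 185 bases before the downstream one of its 2 listed starts, and 792 bases into the gene from the upstream one. Both Dnmt1 matches belonged to the most downstream of 3 listed starts, 1 of them 219 bases before it and on the opposite strand (printed as GCGCGAAA), the other at base 34. From the next start upstream, the same 2 matches lay at bases 138 and 390 of the gene. Expression was not measured per start, so which start the glands use is not known here.

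Reads on genes, recovered from the deposited values, ranged from 5817293 in 4wk replicate 1 to 48314162 in P5 replicate 1. The 2 4wk samples were the shallowest, with 5817293 and 7957918 reads, and 1 read on a gene of 1 kilobase was worth 0.172 FPKM in the first of them against 0.0207 FPKM in P5 replicate 1. The 10 most abundant genes together held 5.99% to 7.18% of the FPKM at E14.5, 29.2% and 31.1% at P5, and 48.1% to 61.1% in the adult. In FPKM, which are shares of a total, the median log2 fold change of all tested genes between embryo and adult was -0.75. Fold changes are therefore given also after median-of-ratios rescaling, which divides each sample by the median ratio of its genes to their geometric means and brings that median to -0.08. Of the acinar and granular duct markers, Aqp5, the water channel of acinar cells, was at 137 to 263 FPKM and Egf at 2883 to 10970 FPKM in the adult samples. Not all markers were high there. The granular duct genes Ren1 and Klk1b26 were at most at 0.0645 and 2.02 FPKM, and the acinar gene Smgc was at 0.154 to 58.6 FPKM in the adult against 42940 and 47360 FPKM at P5. The authors' counting left out reads with several positions or genes, which can lower the values of genes with near copies. Its part in the Ren1 and Klk1b26 values was not tested. Markers of neighbouring tissue were also present in embryonic samples. The 6 skeletal muscle markers summed to 1029 and 1400 FPKM at E16.5 and to 6.56 and 44.4 FPKM at E18.5, and the 7 erythroid markers to 3368 FPKM in E14.5 replicate 1. In whole glands, fewer cells of a type and less RNA per cell cannot be told apart.

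**Figure D1:**
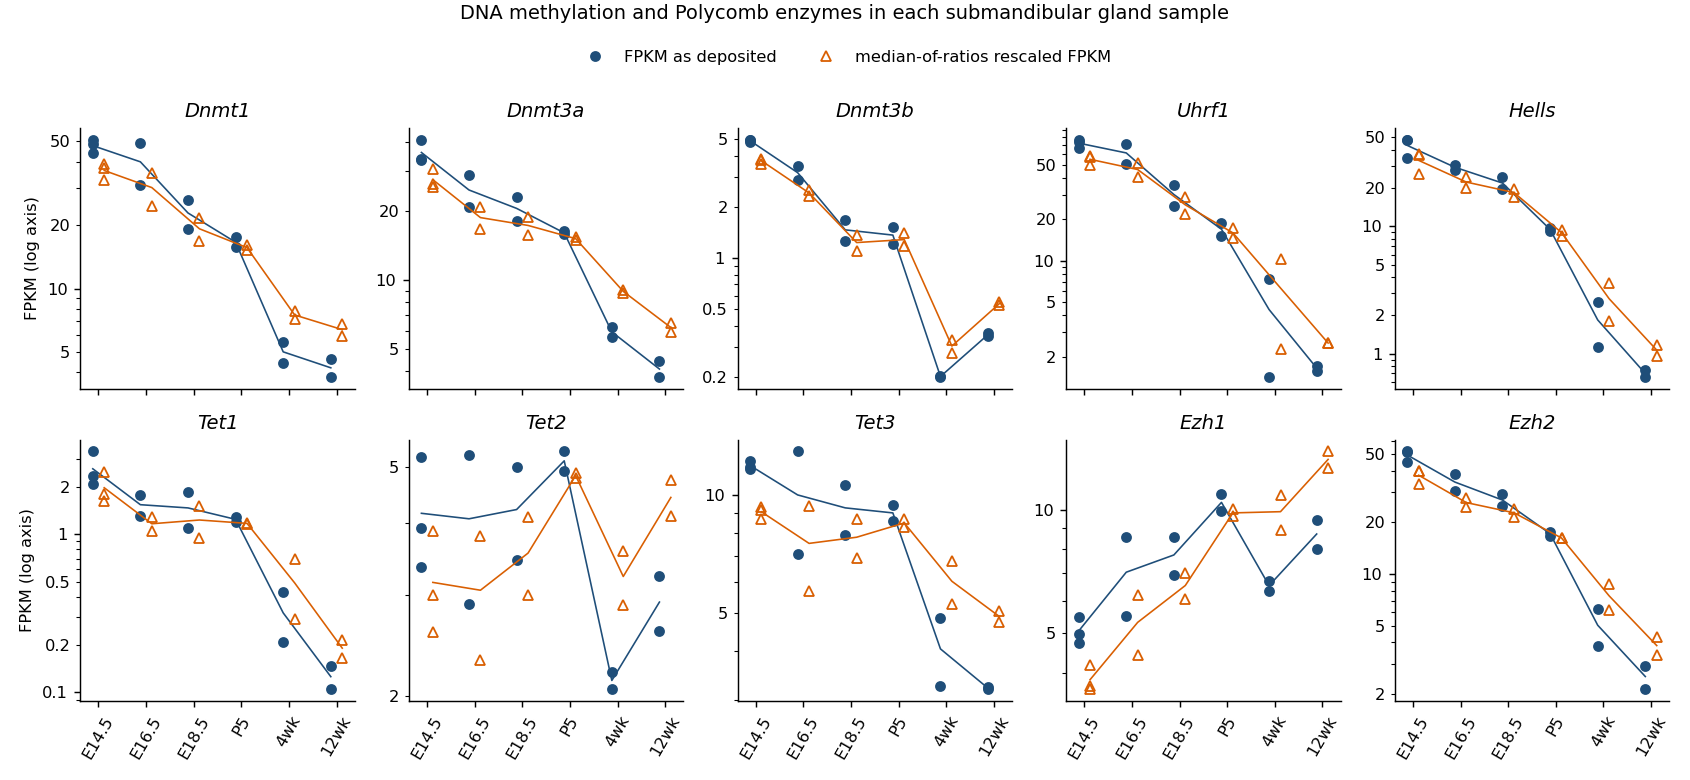
Level of the 10 genes in each of the 13 samples, in FPKM on a log axis whose range differs between panels, with 1 point per sample and a line through the mean of each age. Circles give FPKM as deposited and triangles the median-of-ratios rescaled FPKM. On both scales Dnmt1, Dnmt3a, Uhrf1, Hells and Ezh2 stepped down from E14.5 to 12wk, whereas rescaled Ezh1 stepped up from means near 4 to means above 13 FPKM.

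Uhrf1, Ezh2, Dnmt1, Hells and Dnmt3a stood at 33.4 FPKM or more in every E14.5 sample and at 7.39 FPKM or less in every adult sample. Dnmt3b and Tet1 were low from the start, with at most 4.98 and 3.33 FPKM. Between embryo and adult, 8 of the 10 genes fell past the thresholds and 0 rose in the FPKM as deposited (limma, a change of 1 or more on the log2 scale and a Benjamini-Hochberg adjusted p below 0.1), where 38.0% of all tested genes fell and 5.58% rose. After rescaling, 6 of the 10 fell, namely Dnmt1, Dnmt3a, Dnmt3b, Uhrf1, Hells and Ezh2, and 1 rose, Ezh1. In the rescaled values 14.7% of all tested genes fell and 13.8% rose. The median log2 fold change of the 10 genes was -1.99 beside -0.75 for all tested genes as deposited, and -1.36 beside -0.08 after rescaling. A fold change here is on the log2(FPKM + 1) scale, which understates changes of genes with low values.

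Uhrf1, which couples Dnmt1 to newly replicated DNA, had the highest level of the 10 genes at E14.5. It stood at 66.2, 73.2 and 76.0 FPKM in the E14.5 samples, 50.8 and 71.1 in the E16.5 samples, 35.8 and 24.9 in the E18.5 samples, 18.7 and 15.1 in the P5 samples, 7.39 and 1.41 in the 4wk samples, and 1.72 and 1.58 FPKM in the 12wk samples. Every adult sample lay below both P5 samples, and these lay below every embryonic sample, but the 2 4wk samples differed from each other by more than the rest of the adult samples did. Between embryo and adult, Uhrf1 fell by 3.97 ± 0.37 (SE) on the log2 scale, or 15.7-fold (limma adjusted p = 4.26e-07), and by 3.21 ± 0.35 after rescaling (adjusted p = 4.04e-06). Its log2 fold change was -4.399 without 4wk replicate 1 and -3.80 without 4wk replicate 2. In that replicate 1, the 24 proliferation markers summed to 194 FPKM, against 92.5 FPKM in the other 4wk sample and 70.3 and 68.6 FPKM in the 12wk samples. The part of this in the Uhrf1 value was not tested.

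Hells, the remodeller, showed the same order of stages. Its level was 34.3, 47.3 and 47.9 FPKM in the E14.5 samples, 30.4 and 27.8 in the E16.5 samples, 24.2 and 19.6 in the E18.5 samples, 9.22 and 9.70 in the P5 samples, 2.56 and 1.12 in the 4wk samples, and 0.653 and 0.746 FPKM in the 12wk samples. No 2 neighbouring ages overlapped, so each age was lower than the one before it. Hells fell by 3.91 ± 0.26 between embryo and adult, or 15.1-fold (limma adjusted p = 2.46e-08), and by 3.24 ± 0.25 after rescaling (adjusted p = 2.18e-07). The 12wk values rest on 43 and 64 reads.

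Dnmt1, the maintenance methyltransferase, had a smaller fold change than Uhrf1 and Hells. It was measured at 43.9, 48.4 and 51.0 FPKM in the E14.5 samples, 30.9 and 49.1 in the E16.5 samples, 26.5 and 19.3 in the E18.5 samples, 17.5 and 15.7 in the P5 samples, 5.59 and 4.43 in the 4wk samples, and 4.62 and 3.79 FPKM in the 12wk samples. The stages did not overlap, while E14.5 overlapped with E16.5 and 4wk with 12wk. From embryo to adult it fell by 2.75 ± 0.24 on the log2 scale, or 6.72-fold (limma adjusted p = 2.72e-07), and fell by 1.90 ± 0.21 after rescaling (adjusted p = 4.02e-06).

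Among the de novo enzymes, Dnmt3a was the more abundant at every age. Its levels were 41.1, 34.0 and 33.4 FPKM in the E14.5 samples, 20.8 and 28.8 in the E16.5 samples, 23.1 and 18.1 in the E18.5 samples, 16.3 and 15.9 in the P5 samples, 6.26 and 5.61 in the 4wk samples, and 4.41 and 3.75 FPKM in the 12wk samples. Dnmt3b was at 4.83, 4.98 and 4.93 FPKM in the E14.5 samples, 2.89 and 3.48 in the E16.5 samples, 1.67 and 1.27 in the E18.5 samples, 1.52 and 1.21 in the P5 samples, 0.199 and 0.203 in the 4wk samples, and 0.360 and 0.350 FPKM in the 12wk samples. Dnmt3b thus had its main steps before birth and after P5, with overlapping values at E18.5 and P5. Dnmt3a fell by 2.26 ± 0.21 between embryo and adult (limma adjusted p = 3.97e-07) and by 1.42 ± 0.18 after rescaling (adjusted p = 1.85e-05). Dnmt3b fell by 1.71 ± 0.26 (adjusted p = 4.17e-05) and by 1.30 ± 0.23 after rescaling (adjusted p = 0.000278). In a voom fit of the recovered reads, Dnmt3b fell by 3.35 and Dnmt3a by 2.57, or by 2.42 and 1.62 with median-of-ratios totals. Which of the 2 genes fell more thus depends on the fit. The 4wk values of Dnmt3b rest on 5 and 7 reads.

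The 3 Tet enzymes differed in level and in course. Tet1 was the lowest, at 3.33, 2.09 and 2.35 FPKM in the E14.5 samples, 1.31 and 1.76 in the E16.5 samples, 1.84 and 1.09 in the E18.5 samples, 1.29 and 1.19 in the P5 samples, 0.208 and 0.428 in the 4wk samples, and 0.146 and 0.105 FPKM in the 12wk samples. Tet3 was the highest of the 3 at E14.5, with 11.7, 11.8 and 12.2 FPKM, followed by 7.10 and 12.9 in the E16.5 samples, 10.6 and 7.92 in the E18.5 samples, 9.45 and 8.58 in the P5 samples, 4.85 and 3.25 in the 4wk samples, and 3.23 and 3.20 FPKM in the 12wk samples. In the deposited FPKM all adult samples lay below all earlier ones for both genes, while embryonic and P5 samples overlapped. After rescaling this still held for Tet1. The adult samples of Tet3, at 4.74 to 6.80 rescaled FPKM, then overlapped with the embryonic ones, at 5.70 to 9.37. Tet1 fell by 1.25 ± 0.18 between embryo and adult (limma adjusted p = 2.60e-05) and Tet3 by 1.32 ± 0.17 (adjusted p = 9.42e-06) in the values as deposited. After rescaling their log2 fold changes were -0.90 ± 0.17 (adjusted p = 0.000385) and -0.51 ± 0.14 (adjusted p = 0.00686), short of the fold threshold. In a voom fit of the recovered reads with median-of-ratios totals Tet1 passed at -2.48 (5.57-fold, limma adjusted p = 0.0011) and Tet3 did not at -0.65 (adjusted p = 0.00474).

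Tet2 had its highest mean at P5 and, in the FPKM as deposited, its lowest at 4wk. It was at 5.19, 3.35 and 3.92 FPKM in the E14.5 samples, 2.89 and 5.23 in the E16.5 samples, 4.99 and 3.44 in the E18.5 samples, 5.31 and 4.92 in the P5 samples, 2.06 and 2.204 in the 4wk samples, and 3.23 and 2.60 FPKM in the 12wk samples. Adult and embryonic samples overlapped, all adult samples lay below both P5 samples, and both 4wk samples were the lowest in the deposited FPKM. After rescaling, the 4wk mean was 3.23 FPKM, above 3.15 at E14.5 and 3.05 at E16.5. From P5 to the adult the log2 fold change was -0.81 (limma adjusted p = 0.0113), short of the fold threshold, -1.012 with a pseudocount of 0.1 (adjusted p = 0.0111), past it, and -0.29 after rescaling. The log2 fold change of Tet2 between embryo and adult was -0.53 (95% interval -0.89 to -0.18) as deposited and 0.19 (-0.14 to 0.52) after rescaling, so that its sign depended on the scaling.

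The catalytic subunits of PRC2 moved apart. Ezh2 was at 44.8, 51.7 and 51.9 FPKM in the E14.5 samples, 30.6 and 38.2 in the E16.5 samples, 29.2 and 24.8 in the E18.5 samples, 17.7 and 16.7 in the P5 samples, 6.25 and 3.82 in the 4wk samples, and 2.92 and 2.14 FPKM in the 12wk samples. Ezh1 was at 4.98, 4.73 and 5.48 FPKM in the E14.5 samples, 5.51 and 8.57 in the E16.5 samples, 8.56 and 6.94 in the E18.5 samples, 10.9 and 9.92 in the P5 samples, 6.35 and 6.71 in the 4wk samples, and 9.44 and 8.001 FPKM in the 12wk samples. Ezh2 was lower at each age than at the one before it, with no overlap between neighbouring ages. Ezh1 was highest at P5 in FPKM, and its adult samples overlapped with the embryonic ones.

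Between embryo and adult, Ezh2 fell by 3.08 ± 0.24 on the log2 scale, or 8.44-fold (limma adjusted p = 1.09e-07), and by 2.26 ± 0.22 after rescaling (adjusted p = 1.82e-06). The log2 fold change of Ezh1 was 0.24 (95% interval -0.13 to 0.61, limma adjusted p = 0.222) as deposited. After rescaling Ezh1 rose by 1.07 (0.69 to 1.45, limma adjusted p = 0.000145), since 8.89 to 13.9 rescaled FPKM in the adult lay above 3.66 to 7.02 in the embryo without overlap. The call for Ezh1 therefore depends on the scaling, whereas the ratio of both genes within a sample does not.

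**Figure D2:**
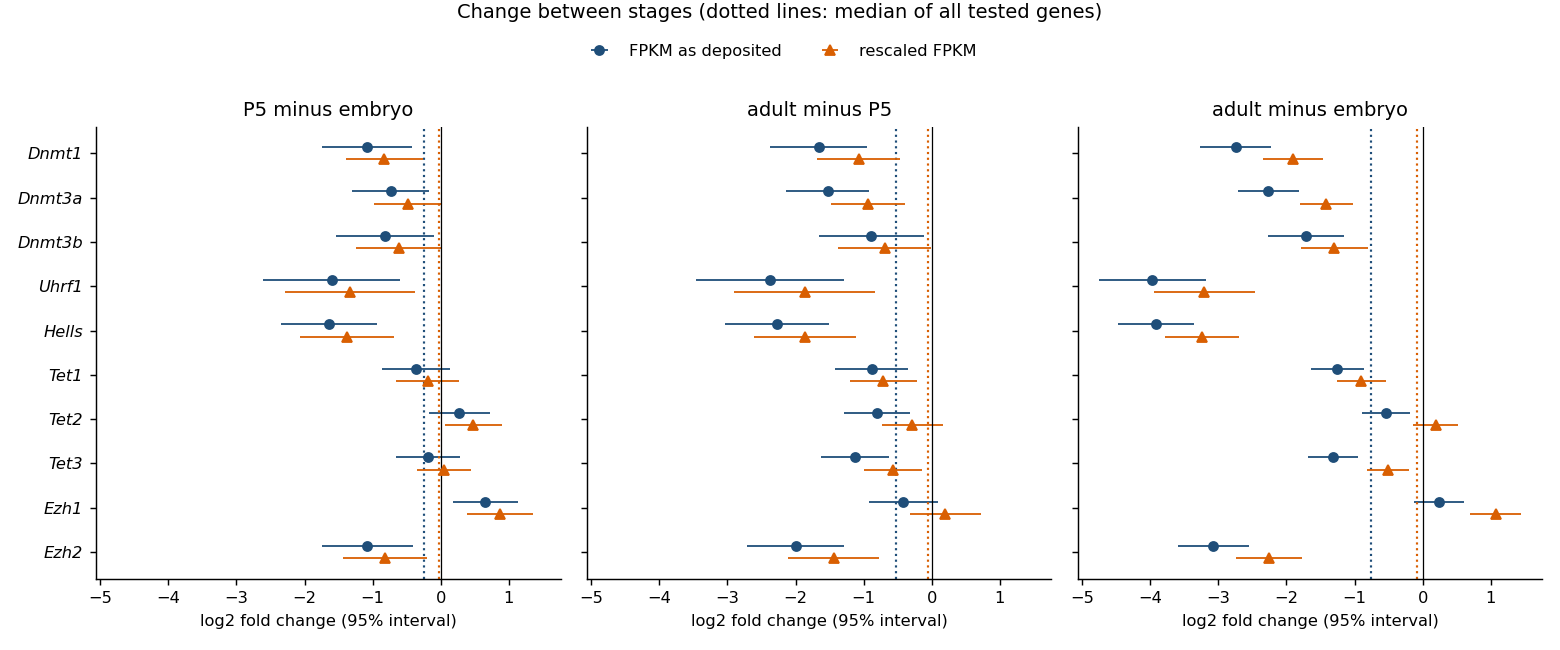
Log2 fold change of each gene between stages with its 95% interval from limma, for FPKM as deposited (circles) and after rescaling (triangles), with the median of all 14650 tested genes as dotted lines in the same colours. In the right panel Uhrf1 and Hells lie farthest to the left, near -4 as deposited, and Ezh1 is the only gene to the right of 0 on both scales.

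The decline was not confined to one step. From embryo to P5, 4 of the 10 genes fell, Dnmt1, Uhrf1, Hells and Ezh2, against 8.14% of all tested genes. After rescaling 2 of these, Uhrf1 and Hells, remained past the thresholds, against 3.9% of all genes. Hells fell by 1.64 ± 0.33 (limma adjusted p = 0.00456) and by 1.38 ± 0.32 after rescaling (adjusted p = 0.0142). Uhrf1 fell by 1.60 ± 0.47 (adjusted p = 0.0231) and by 1.34 ± 0.44 after rescaling (adjusted p = 0.0523). With either P5 sample left out, which leaves 1 sample assumed to vary like the other stages, 1 of the 10 genes passed, Hells, against 4.55% and 4.44% of all tested genes. Ezh1 had a log2 fold change of 0.65 ± 0.22 from embryo to P5 (adjusted p = 0.0418), below the fold threshold. In the voom fit with median-of-ratios totals Ezh1 rose by 1.01 (limma adjusted p = 0.00477), where 11.1% of all tested genes rose.

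From P5 to the adult gland, Dnmt1, Dnmt3a, Uhrf1, Hells, Tet3 and Ezh2 fell, 6 of the 10 against 20.8% of all tested genes. After rescaling Dnmt1, Uhrf1, Hells and Ezh2 fell, 4 of the 10 against 8.53% of all genes. With a pseudocount of 0.1, 9 of the 10 fell against 33.5% of all genes, with Tet1 at -2.15, Dnmt3b at -1.98 and Tet2 at -1.012 added, where the main values were -0.88, -0.89 and -0.81. In the voom fit 8 fell against 34.8% of all genes, with Tet1 at -2.88 and Dnmt3b at -2.197 added. Uhrf1 fell by 2.37 ± 0.50 (limma adjusted p = 0.0025) and by 1.87 ± 0.48 after rescaling (adjusted p = 0.0121). Hells fell by 2.27 ± 0.36 (adjusted p = 0.000374) and fell by 1.86 ± 0.35 after rescaling (adjusted p = 0.00194). Ezh2 fell by 2.00 ± 0.33 (adjusted p = 0.00057) and by 1.44 ± 0.31 after rescaling (adjusted p = 0.00444). The log2 fold change of Ezh1 was -0.42 (95% interval -0.93 to 0.10) as deposited and 0.20 (-0.32 to 0.72) after rescaling.

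When the 6 ages were compared one by one, the step from P5 to 4wk held most of the changes. In it, 6 of the 10 genes fell (Dnmt1 by 1.56, Dnmt3a by 1.30, Uhrf1 by 1.99, Hells by 1.93, Tet3 by 1.00 and Ezh2 by 1.62 on the log2 scale), against 22.1% of all tested genes. After rescaling, Uhrf1, Hells and Ezh2 fell, 3 of the 10 against 8.72% of all genes. The log2 fold change of Uhrf1 at this step was -2.89 without 4wk replicate 1 and -1.09 without 4wk replicate 2, and the call for Tet3 was lost without P5 replicate 1 or 4wk replicate 2, with log2 fold changes of -0.94 and -0.77. Between E18.5 and P5, Hells fell by 1.12 ± 0.23 (limma adjusted p = 0.00835), 1 gene of the 10 against 2.97% of all genes, and without E18.5 replicate 1 or after rescaling it did not pass, at -0.97 and -0.96 (1.79% of all genes fell after rescaling). In limma, 0 of the 10 passed between E14.5 and E16.5 (5.15% of all genes passed in either direction), between E16.5 and E18.5 (2.94%), and between 4wk and 12wk (5.15%). At an unadjusted p below 0.05 there were 6, 3 and 3 of the 10, where 32.1%, 25.7% and 26.2% of all genes had such a p. The voom fit called 0, 2 and 0 of the 10, Dnmt3b and Uhrf1 being the 2, where it called 9.82%, 6.37% and 5.67% of all genes. Between 4wk and 12wk, Uhrf1, Hells and Ezh2 fell without 4wk replicate 2, 3 of the 10 against 5.87% of all genes, in a fit where the spread of the lone 4wk sample is taken from the other ages.

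The order of the 10 genes by deposited FPKM was not the same at each age. At E14.5 Uhrf1 was highest with 71.8 FPKM on average, followed by Ezh2, Dnmt1 and Hells, whose samples overlapped with one another, and then by Dnmt3a at 36.2 FPKM, which overlapped with Hells. At P5, Ezh2, Uhrf1, Dnmt1 and Dnmt3a lay between 16.1 and 17.2 FPKM on average, each overlapping with its neighbour in the order. At 4wk and 12wk Ezh1 had the highest mean of the 10 in the deposited FPKM, with 6.53 and 8.72 FPKM, although Uhrf1 in 4wk replicate 1 was higher. This order rests on the gene lengths. The FPKM imply 4194 bases for Ezh1 and 6304 for Dnmt1, whereas their GENCODE exons cover 7440 and 5264 bases. With the GENCODE lengths Ezh1 would be at 3.68 and 4.92 FPKM at 4wk and 12wk, below Dnmt1 at 5.997 and 5.04 FPKM, and Uhrf1 would still have the highest mean at E14.5, at 61.6 FPKM. Hells, close to Dnmt1 at E14.5 in the deposited FPKM, lay below Tet2 on average at both adult ages. With the GENCODE lengths Hells would be at 18.1 FPKM at E14.5 and Dnmt1 at 57.2 FPKM, and Hells would still lie below Tet2 in the adult.

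Ratios of enzyme pairs within a sample were compared between the 7 embryonic and the 4 adult samples, since both genes of a pair share the scaling of the sample. In all, 7 pairs were tested with two-sided exact permutation tests over the 330 ways to divide the samples, with adjustment over the 7 pairs and a smallest possible p of 0.00606. Some pairs share a gene and are not independent. The log2 ratio of Ezh2 to Ezh1 was 3.14, 3.42 and 3.22 in the E14.5 samples, 2.45 and 2.14 in the E16.5 samples, 1.76 and 1.82 in the E18.5 samples, 0.69 and 0.75 in the P5 samples, -0.02 and -0.80 in the 4wk samples, and -1.66 and -1.86 in the 12wk samples. Each age lay below the one before it. The level at which the ratio is 0 rests on the gene lengths, whereas differences between samples do not. The mean log2 ratio was 2.57 ± 0.69 (SD, n = 7) in the embryo and -1.08 ± 0.84 (SD, n = 4) in the adult, a 12.6-fold lower ratio (exact permutation adjusted p = 0.0141).

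Within the maintenance machinery, Uhrf1 and Hells were compared with Dnmt1. The log2 ratio of Hells to Dnmt1 lay between -0.82 and 0.02 in the embryo and between -2.65 and -1.10 in the adult, with means 1.75 lower (exact permutation adjusted p = 0.0141). That of Uhrf1 to Dnmt1 was 1.49 lower on average (exact permutation adjusted p = 0.0212). Without 12wk replicate 1 or 2 the difference was -1.34 or -1.40, and the call was lost (exact permutation adjusted p = 0.0583). With fewer samples there are fewer divisions, and the smallest possible p is larger. A lost call thus does not show that the result rests on that sample. The embryonic samples of this ratio lay between 0.37 and 0.71, and 4wk replicate 1, at 0.40, was the adult sample that overlapped with them. Dnmt1 relative to Dnmt3a was 0.51 lower in the adult (exact permutation adjusted p = 0.0141), and the ratio of Dnmt3b to Dnmt3a differed by -0.64 (adjusted p = 0.103), which did not pass.

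For the Tet enzymes, the log2 ratio of Tet1 to Tet3 was 1.19 lower in the adult (exact permutation adjusted p = 0.0255) and that of Tet2 to Tet3 was 0.83 higher (adjusted p = 0.0283). With the pseudocount of 0.1, both pairs overlapped between stages through 1 4wk sample each. The call for Tet1 to Tet3 was lost without 4wk replicate 1 or either 12wk sample, and that for Tet2 to Tet3 without 4wk replicate 2 or either 12wk sample, with exact permutation adjusted p between 0.0583 and 0.0778. The differences were then -1.14 to -1.06 and 0.66 to 0.84, and with fewer divisions the smallest possible p was again larger. With a pseudocount of 1 in place of 0.1, the Tet1 to Tet3 difference was 0.06 and that of Dnmt3b to Dnmt3a was 0.56. Adult Tet1, at 0.105 to 0.428 FPKM, and adult Dnmt3b, at 0.199 to 0.360 FPKM, lay below that pseudocount. Without a pseudocount, Tet1 to Tet3 was 0.136 to 0.285 in the embryo and 0.0328 to 0.132 in the adult, with no overlap. Dnmt3b to Dnmt3a was then 0.0702 to 0.148 and 0.0318 to 0.0932, with overlap.

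**Figure D3:**
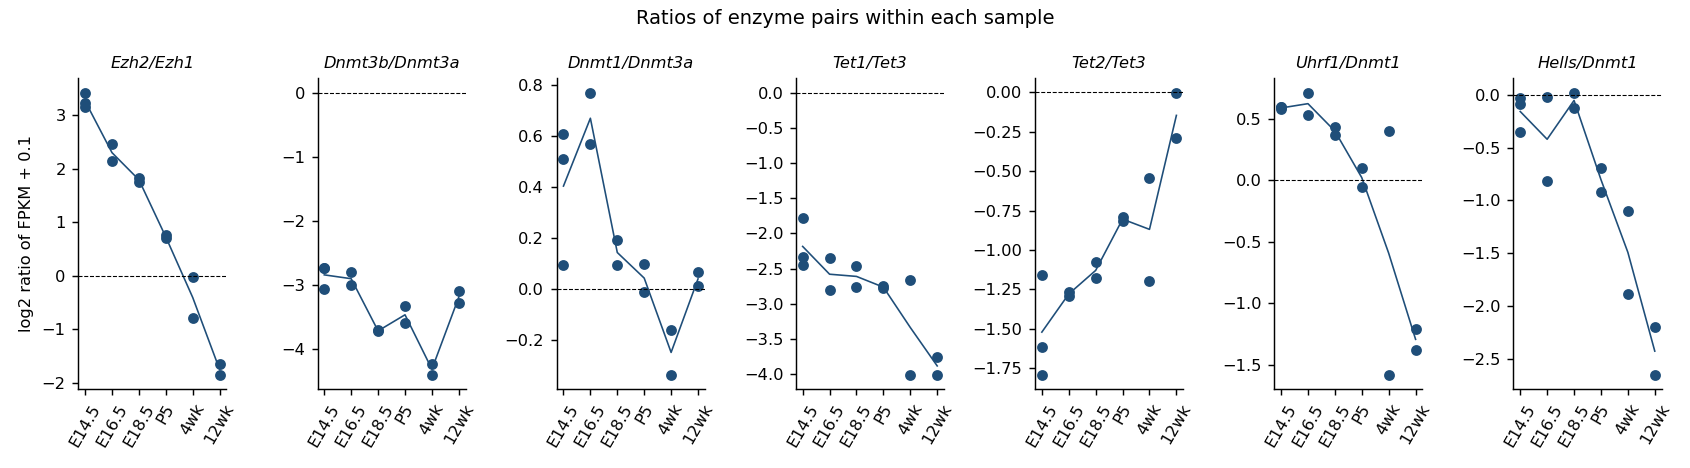
Log2 ratio of FPKM + 0.1 of 2 genes in the same sample for the 7 pairs, with 1 point per sample, a line through the mean of each age, and a ratio of 0 marked by the dashed line. Axis ranges differ between panels. The Ezh2 to Ezh1 ratio passes from above 3 at E14.5 to below -1.6 at 12wk, and 4wk replicate 1 stands apart in the Uhrf1 to Dnmt1 panel at 0.40.

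The level of proliferation markers fell along with most of these genes. All 24 markers, which include Mki67, Top2a and the Mcm helicase subunits, fell between embryo and adult on both scales. Their summed level was 1086 to 1680 FPKM in the embryo, 554 and 564 FPKM at P5, and 68.6 to 194 FPKM in the adult. The median log2 fold change of the 24 between embryo and adult was -4.04 as deposited and -3.39 after rescaling, next to -3.97 and -3.21 for Uhrf1. Relative to the geometric mean of these markers, Hells stayed in the same range, with log2 ratios of -0.97 to -0.12 in the embryo and -0.82 to -0.36 in the adult. Dnmt1 moved from between -0.83 and -0.03 in the embryo to between 0.27 and 2.04 in the adult, and Ezh2 from between -0.71 and -0.01 to between 0.43 and 1.40. Ezh1 moved from between -3.45 and -2.11 to between 0.46 and 3.06.

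Markers of other cell types moved between the same stages. All 7 mesenchymal markers fell, from a summed 1446 to 2316 FPKM in the embryo to 67.7 to 296 FPKM in the adult. All 5 endothelial markers fell as well (3 of 5 after rescaling), from 84.8 to 120 FPKM to 19.1 to 37.6 FPKM. Of the 7 epithelial markers 0 passed as deposited and 1 rose after rescaling, and of the 6 immune markers 0 passed and 4 rose. The 5 tested erythroid and the 6 skeletal muscle markers fell on both scales, and 4 of 6 neural markers fell (3 of 6 after rescaling). Of the 11 acinar markers 7 rose (8 after rescaling), and of the 6 tested granular duct markers 5 rose (6 after rescaling). The part of these cell types in the levels of the 10 genes was not tested.

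**Figure D4:**
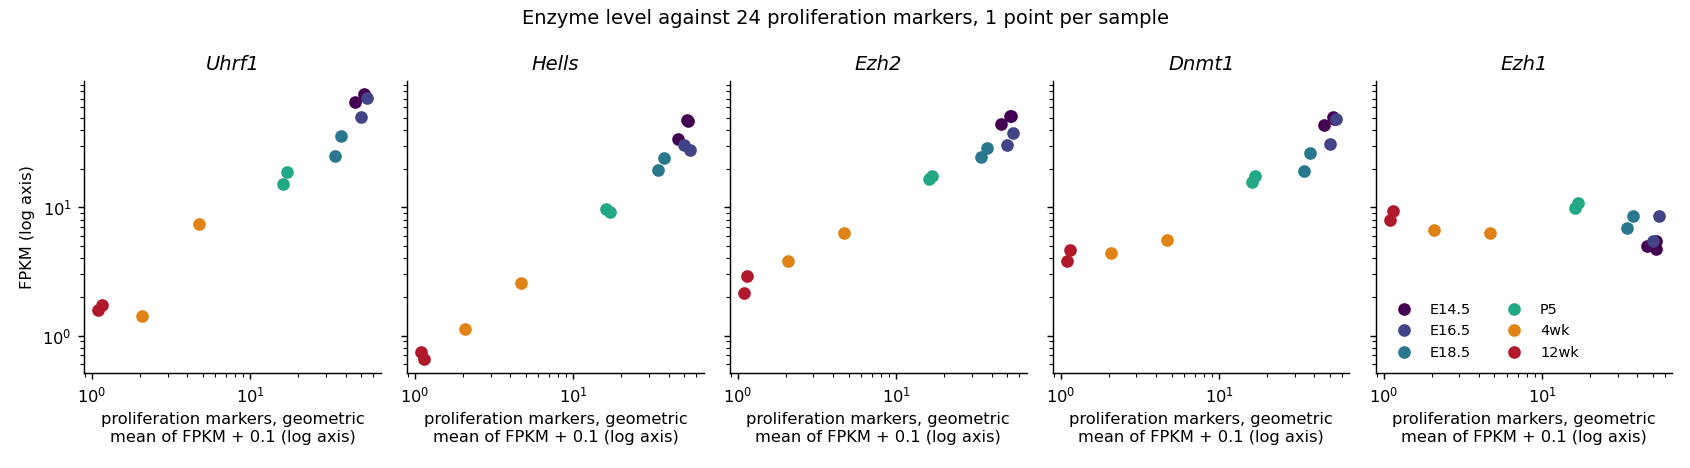
Level of 5 of the genes against the geometric mean of 24 proliferation markers, both in FPKM on log axes, with 1 point per sample coloured by age. Uhrf1, Hells, Ezh2 and Dnmt1 are high where the markers are high, with Dnmt1 flattening near 4 to 6 FPKM in the adult samples, while Ezh1 stays between 4.73 and 10.9 FPKM.

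The partner genes of DNA methylation showed a decline of the same direction. Of 16 tested partners, 14 fell between embryo and adult and 0 rose as deposited, with a list median of -1.72, and 6 fell after rescaling with a median of -0.83. For this and the lists that follow, the shares of all tested genes were 38.0% lower and 5.58% higher as deposited (median -0.75), and 14.7% lower and 13.8% higher after rescaling (median -0.08). Cdca7, which activates the Hells remodeller, fell by 4.35 ± 0.33 (limma adjusted p = 7.56e-08), with 38.7 ± 15.4 FPKM in the embryo (SD, n = 7) and 0.893 ± 0.756 FPKM in the adult (SD, n = 4). Zfp57, a zinc finger protein that keeps methylation at imprinted loci, fell by 2.53 ± 0.35 (adjusted p = 1.63e-05), and Cdca7l, a relative of Cdca7, by 2.43 ± 0.29 (adjusted p = 3.82e-06). These 3 fell after rescaling too, by 3.73, 2.19 and 1.68.

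Partners of demethylation were mixed. As deposited 2 of 15 rose and 8 fell, and after rescaling 3 rose and 3 fell, with list medians of -1.24 and -0.35. Gadd45a, a stress-induced gene linked to DNA repair and demethylation, rose by 2.47 ± 0.19 (limma adjusted p = 1.03e-07), with 5.78 ± 0.923 FPKM in the embryo (SD, n = 7) and 37.8 ± 12.2 FPKM in the adult (SD, n = 4), and its relative Gadd45g rose by 1.54 ± 0.26 (adjusted p = 9.91e-05). Gadd45b, another relative, fell by 1.52 ± 0.25 (limma adjusted p = 7.60e-05) and had -0.76 after rescaling, short of the fold threshold. The base excision repair genes Xrcc1, Parp1 and Apex1 fell by 2.12, 1.99 and 1.96 as deposited and by 1.25, 1.08 and 1.12 after rescaling. Cxxc5, a CXXC-domain protein, rose after rescaling by 1.29, with 0.40 as deposited. Of 9 methyl-CpG readers, 3 fell and 0 rose as deposited (median -0.82), Mbd3 and Mbd6 among them. This is near the 38.0% of all tested genes that fell, whose median was -0.75. After rescaling 0 fell and 2 rose (median -0.01), which were Zbtb38 by 1.43 and Zbtb4 by 1.29.

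Among the other Polycomb genes, 9 of 11 tested PRC2 subunits fell as deposited (median -1.61), and 3 fell and 1 rose after rescaling (median -0.79). The accessory subunits Mtf2 and Aebp2 fell by 2.07 ± 0.17 (limma adjusted p = 1.48e-07) and 1.88 ± 0.17 (adjusted p = 3.03e-07), and by 1.31 and 1.07 after rescaling. The histone-binding subunit Rbbp4 fell by 1.73 as deposited and had -0.80 after rescaling. The accessory subunit Phf1 rose after rescaling by 1.33, with 0.47 as deposited. The third gene that fell after rescaling was E130012A19Rik, by 1.11.

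Of 25 PRC1 subunits, 12 fell and 0 rose as deposited (median -0.99), and 5 fell and 1 rose after rescaling (median -0.17), beside 38.0% of all tested genes lower as deposited and 14.7% after rescaling. The chromobox genes, whose products read the PRC2 mark, went apart. Cbx2 fell by 3.06 ± 0.24 (limma adjusted p = 1.28e-07), with 11.9 ± 4.27 FPKM in the embryo (SD, n = 7) and 0.477 ± 0.102 FPKM in the adult (SD, n = 4), and Cbx6 by 2.34 ± 0.25 (adjusted p = 1.89e-06), both also after rescaling, by 2.52 and 1.46. Cbx7 rose after rescaling by 1.65 ± 0.26 (adjusted p = 0.000113), with 0.89 ± 0.28 as deposited, from 2.90 ± 1.51 to 5.78 ± 0.937 FPKM. Pcgf2 fell by 2.07 as deposited and by 1.29 after rescaling, and Scml2 had log2 fold changes of -1.76 and -1.498, past the thresholds on both scales. Of 11 genes that oppose Polycomb, 6 fell and 0 rose as deposited (median -1.10). After rescaling 1 fell, Asxl3 by 1.21, while Asxl1 and Smarca4, which fell by 1.65 and 1.60 as deposited, had -0.85 and -0.70.

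**Figure D5:**
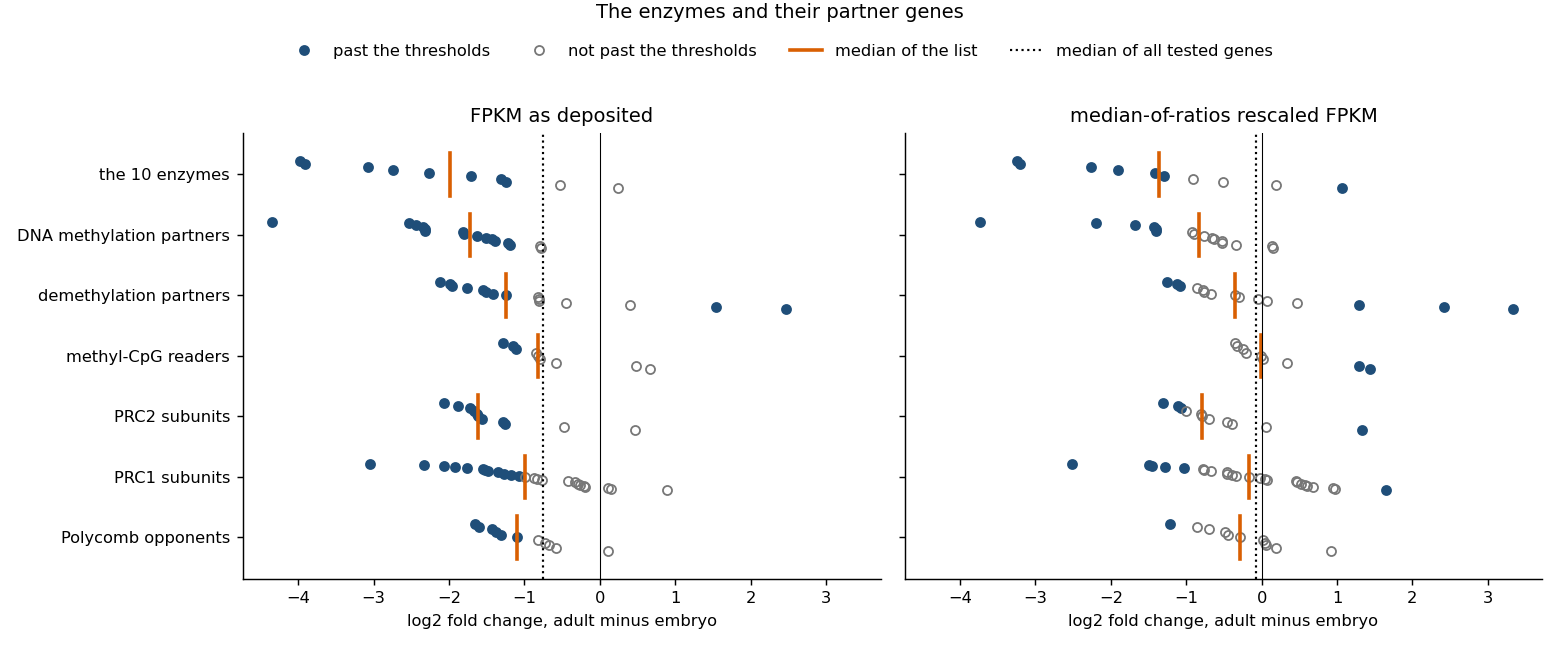
Log2 fold change between embryo and adult of the 10 genes and of 6 lists of partner genes, with 1 point per gene, filled where it passed the thresholds, the list median as an orange bar and the median of all tested genes as a dotted line. As deposited (left) most points lie left of 0 together with the median of all genes at -0.75. After rescaling (right) the lists lie around 0 apart from the DNA methylation and PRC2 partners, whose medians are -0.83 and -0.79.

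The genes whose profile over the 13 samples was most like each of the 10 were taken from 10728 genes with a mean of at least 5 FPKM at 1 or more ages, by Pearson's r of log2(rescaled FPKM + 1). All points share the course of development, so that high values are common and are given as a description. Without rescaling and by rank correlation, Uhrf1 kept 2 of its 3 genes both times, and each of the other 9 kept at most 1 of 3 in at least 1 of these. Timeless, Cdc6 and Mcm10 were most like Uhrf1 (r = 0.998, 0.994 and 0.993). Rrm1, Trim59 and Chaf1a were most like Hells (0.995, 0.994 and 0.993), and Dtl, Clspn and Mcm2 most like Ezh2 (0.994, 0.994 and 0.992). For Dnmt1 these were Adamts7, Pask and Exo1 (0.992, 0.990 and 0.990), for Dnmt3a Map4k4, Lamb1 and Myh10 (0.993, 0.992 and 0.991), and for Dnmt3b Isg20l2, Trim28 and Msi1 (0.995, 0.993 and 0.991). For Tet1 they were Slc36a4, Zmym4 and Lamb1 (0.987, 0.974 and 0.973).

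The 3 genes that did not share the steep decline had their own nearest profiles. Tet3 was nearest to Kdr, Hspg2 and Rapgef2 (r = 0.945, 0.937 and 0.933), and Tet2 to Ttc14, Abcc1 and Zfc3h1 (0.904, 0.904 and 0.898). Ezh1 was nearest to Dopey2, Zbtb4 and Cdc42bpg (0.990, 0.985 and 0.984). Dopey2 averaged 2.13 FPKM at E14.5, 9.70 at P5 and 11.1 FPKM at 12wk, and Zbtb4 3.41, 8.63 and 8.63 FPKM. Among the 10 genes themselves, Hells and Ezh2 were the most alike pair (r = 0.991) and Hells and Ezh1 the most opposed (r = -0.924).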

How the data were processed

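RNA-seq was analysed for 13 submandibular gland samples at 6 ages, grouped by the age in the labels. The authors mapped 50 bp single-end TruSeq reads to mm9 with TopHat2 2.0.13 and Bowtie2 2.2.6 and counted them on UCSC genes with featureCounts, leaving out reads with several positions or genes. The authors deposited FPKM, and describe normalization with DESeq2 1.10.1. The deposited FPKM gave median-of-ratios factors of 1.15 to 1.38 in the embryo and 0.617 to 0.714 in the adult, so they were taken as scaled to each sample's total. The members and gene lists were chosen with earlier results of these data known.

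Genes with at least 1 FPKM in 1 sample (14650) were fitted as log2(FPKM + 1) with limma 3.58.1 in R 4.3.3 (trend in eBayes) over all 13 samples, once with 3 stages and once with 6 ages, with Benjamini-Hochberg adjustment over all tested genes. A gene was called at the study's thresholds, an adjusted p below 0.1 together with at least 1 unit of log2 change. Standard errors and 95% intervals are from that fit. Ratios used a pseudocount of 0.1 and an exact permutation test. From each list the called genes were ranked by the size of their change, and the first 3 that rose and the first 3 that fell were eligible to be named, on either scale, and for each of the 10 genes its 3 nearest profiles. Gadd45b was named in addition, as a relative of Gadd45a and Gadd45g. Lists of other cell types were described by counts and sums, and by the levels of Aqp5, Egf, Ren1, Klk1b26 and Smgc, which this ranking did not choose.

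Whole reads were recovered from the FPKM for all 23364 genes, with a tolerance of 1e-05 of a read, and gave 5817293 to 48314162 reads on genes per sample. They were used for depth and for a voom fit added after the data were seen, with weights and limma on read counts. Also added then were levels with GENCODE exon lengths in place of those behind the FPKM. Counting error is smallest where reads are many, so the 4wk samples are the least precise.

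Alternatives were median-of-ratios rescaling, rescaling to the total without the highest genes, another pseudocount, other filters and thresholds, a fit without trend, only the samples compared, a replicate block, and each sample left out. The code was tested on simulated data. Figures used matplotlib 3.10.9 under Python 3.11.15.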

Additional observations from a re-analysis of the deposited data

Results flagged for a closer look

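In 2 of 34 sets of 4 to 10 samples that were examined, 1 sample stood farther from the others than Dixon's 95% limit (0.829 for 4 samples), where chance alone gives about 1 in 20. Both were 4wk replicate 1 among the 4 adult samples, the sample with the fewest reads. Uhrf1 was at 7.39 FPKM there and between 1.41 and 1.72 FPKM in the other adult samples, with a gap of 0.948 of the range. Tet3 was at 4.85 FPKM there and between 3.20 and 3.25 FPKM in the others, with a gap of 0.970 of the range. The Uhrf1 value rests on 157 reads and that of Tet3 on 308 reads. In the same sample the proliferation markers summed to 194 FPKM against 68.6 to 92.5 FPKM in the other adult samples, and the skeletal muscle markers to 35.9 FPKM against 1.41 to 2.00 FPKM. Their part in these values was not tested.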

How the results depend on the processing

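Between embryo and adult, 7 or 8 of the 10 genes passed under every alternative. However, 1 of the 7 after median-of-ratios rescaling and 1 of the 8 in rescaled voom was a rise of Ezh1. Of all tested genes, 43.6% passed as deposited, 28.4% after median-of-ratios rescaling, 57.6% in voom and 39.7% in rescaled voom. Median-of-ratios rescaling lowered the number past the thresholds to 2 from embryo to P5, 0 from E18.5 to P5 and 3 from P5 to 4wk. In these comparisons 9.45%, 4.16% and 15.1% of all tested genes passed. Rescaling to the total without the highest genes gave 1 from embryo to P5, 0 from E18.5 to P5 and 1 from 4wk to 12wk. The share of all genes in that setting is not given here. A pseudocount of 0.1 gave 1 from E16.5 to E18.5 and 1 from 4wk to 12wk, the latter beside 1658 of all 14650 tested genes. Voom gave 2 from E16.5 to E18.5, or 1 with median-of-ratios totals, beside 6.37% and 5.80% of all genes. With each sample left out in turn the numbers ranged from 1 to 4 (embryo to P5), 0 to 1 (E16.5 to E18.5, with 1 only without E16.5 replicate 1, and E18.5 to P5) and 0 to 3 (4wk to 12wk). The sign turned for Tet3 from embryo to P5 (0.0504, 0.15 and 0.0582 under both rescalings and rescaled voom), for Ezh1 from P5 to adult (0.20 and 0.30 under rescaling and rescaled voom) and for Tet2 from embryo to adult (0.19 and 0.36 under the same). The cause was not tested.

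With ages averaged first, 3 against 2 values, no ratio could pass (adjusted p = 0.233), and the differences were -3.53 (Ezh2 to Ezh1), -0.51 (Dnmt1 to Dnmt3a), -1.15 (Tet1 to Tet3), 0.80 (Tet2 to Tet3), -1.48 (Uhrf1 to Dnmt1) and -1.75 (Hells to Dnmt1). A pseudocount of 1 turned Dnmt3b to Dnmt3a to 0.56 (adjusted p = 0.0424) and Tet1 to Tet3 to 0.0649. Leaving out samples gave -1.50 to -1.06 for Tet1 to Tet3, 0.66 to 1.06 for Tet2 to Tet3 and -1.93 to -1.27 for Uhrf1 to Dnmt1, whose call was lost without either 12wk sample (exact permutation adjusted p = 0.0583). Fewer samples leave fewer divisions and a larger smallest possible p, so these lost calls do not show dependence on the sample left out.

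Over all genes, 6385 passed between embryo and adult (818 higher, 5567 lower) and 4166 after rescaling (2019 higher, 2147 lower). For the same stages, rescaled voom called 7 of 16 DNA methylation partners, 5 of 11 PRC2 subunits and 2 of 11 Polycomb opponents. It called 39.7% of all tested genes. Voom called 5 of 9 methyl-CpG readers, beside 57.6% of all tested genes. The total without the highest genes gave 1 reader and 3 opponents. From P5 to adult the 3385 became 2136 after rescaling, 5320 with a pseudocount of 0.1 and 5599 with voom, and from P5 to 4wk the 3556 became 2211, 5767 and 5646. From embryo to P5 1798 became 2936 with voom, and 870 or 1049 without 1 P5 sample. For E14.5 to E16.5, E16.5 to E18.5 and E18.5 to P5, voom gave 1439, 933 and 1512 against 755, 430 and 738, rescaled voom 1463, 850 and 1416, and a pseudocount of 0.1 1183 and 1163 for the first and last. From 4wk to 12wk 755 became 1658 with that pseudocount, 244 with only the samples compared and 1472 without 4wk replicate 2. Among single genes, other alternatives ended a call in 24 cases and made one in 10. In 13 of 20 comparisons of nearest profiles, without rescaling or by rank correlation, at most 1 of the 3 was kept.

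Replicate numbers showed no pairing of the samples on average, with a mean correlation of deviations of -0.02 for the same number (30 pairs) and 0.01 for different numbers. Single correlations lay between -0.35 and 0.27 and between -0.27 and 0.35. Where an age had 2 samples their deviations mirror each other, so the same and different numbers are not independent sets. A replicate block left 3 of 10 genes from embryo to P5, where Ezh2 had -0.9999, and moved no other count of the 10. It leaves E14.5 replicate 3 without a partner. Depth limits the 4wk samples, where Dnmt3b rests on 5 and 7 reads, Tet1 on 17 and 48, and Hells on 45 and 27.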
